A study of Mus musculus with 6 samples.

Results

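Chemokines and their receptors formed a set of 43 genes, 32 ligands and 11 receptors, chosen by gene symbol from the 54232 gene entries of an RNA-Seq count table, and every one of the 43 had an entry there. They were sorted by the cells that textbooks name as their main source: 9 ligands known from stroma, 12 ligands of leukocytes, 6 ligands that many cell types make once induced, 5 ligands of epithelium and other barriers, 7 signalling receptors and 4 atypical receptors. The table held 3 libraries of WT and 3 of Pbrm1 cKO primary uterine stromal cells from mouse, and the comparison asked which transcripts depended on Pbrm1, a subunit of the PBAF chromatin remodeling complex, in these cells. Labels call the control WT, and the study's methods describe it as Pbrm1 fl/fl, that is, homozygous for the loxP-flanked allele without Cre. The Pbrm1 cKO carried the same fl/fl alleles and PR-IRES-cre, in which Cre is made from the progesterone receptor gene, so that deletion reaches the epithelium and stroma of the uterus and other cells that express this receptor. All mice were 8 to 12 weeks old and at day 4 of pregnancy by the labels, which describe them as pseudopregnant. Pieces of 5 to 10 uterine horns were digested with enzymes and filtered, and the cells were plated for 4 h and then for 2 h in fresh medium before lysis, so cells other than stroma that attached in this time could remain in the sample. The study's methods describe cytokeratin and vimentin staining by which most of the isolated cells were stromal. The study calls its replicates biological, but no label says that they came from separate mice, pools or days, and where they did not, p-values measure only the spread between these libraries.

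Chemokines are small secreted proteins that direct the movement of leukocytes along a gradient, and they are named by the spacing of their first cysteines as CC, CXC, CX3C or XC ligands. Each signals through G protein-coupled receptors on the target cell, mostly through inhibitory G proteins, and several ligands commonly share a receptor. Atypical receptors bind chemokines without this signal, and most of them take the ligand up and so lower its level. In the uterus, chemokines bring macrophages, natural killer cells and eosinophils into the tissue around mating and implantation, and decidual stroma is known for silencing some of them.

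Many inflammatory chemokines have a compact promoter with sites for NF-kB, the transcription factor that follows TNF and interleukin-1 signals. The 120 bases before the annotated start are shown for Cxcl1, Cxcl2 and Cxcl3, neutrophil-attracting neighbours on chromosome 5 that held the same 11-base run, and for Cxcl10, the interferon-inducible ligand that rose in Pbrm1 cKO. Capitals mark matches to the NF-kB consensus (searched by its name on both strands), and each sequence is read 5′ to 3′ on the gene's strand, from RefSeq on GRCm38.p6. The Cxcl1 window is chr5:90891125-90891244 (plus strand), that of Cxcl2 is chr5:90903779-90903898 (plus strand), that of Cxcl3 is chr5:90785981-90786100 (plus strand), and that of Cxcl10 is chr5:92348890-92349009 (minus strand).
Cxcl1: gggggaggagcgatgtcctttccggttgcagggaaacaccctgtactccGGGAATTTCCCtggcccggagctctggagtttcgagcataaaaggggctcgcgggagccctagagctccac
Cxcl2: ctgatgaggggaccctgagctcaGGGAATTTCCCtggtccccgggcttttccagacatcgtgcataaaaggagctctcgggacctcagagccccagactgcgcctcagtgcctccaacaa
Cxcl3: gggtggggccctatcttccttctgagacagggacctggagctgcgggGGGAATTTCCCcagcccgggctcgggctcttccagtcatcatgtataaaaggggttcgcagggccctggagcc
Cxcl10: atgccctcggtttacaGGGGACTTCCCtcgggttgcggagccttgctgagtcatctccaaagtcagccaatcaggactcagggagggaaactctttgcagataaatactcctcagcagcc
The run GGGAATTTCCC lay between bases -71 and -61 from the start in Cxcl1, between -97 and -87 in Cxcl2 and between -73 and -63 in Cxcl3, and 11 of 27025 RefSeq promoters (0.0407%) held it within the 250 bases before the start. Cxcl10 had GGGGACTTCCC between -104 and -94. Of the 43 genes, 32 had a RefSeq promoter, taken at the listed start nearest the gene's 5′ end (1583 bases away for Cx3cr1). Ccl2, Ccl4, Ccl5, Ccl7, Ccl11, Ccl24, Cxcl5, Cxcl11, Cxcl16, Cxcl17 and Ccr7 had none and are left out of these shares. Within the 250 bases before the start, 7 of the 32 (21.9%) matched the NF-kB consensus, against 7.01% of all 27025. The interferon-stimulated response element, searched as GAAA, any 2 bases and GAAA again, was in 3 of 32 (9.38% against 3.04%) and TATAAA, read on the gene's strand only, in 11 of 32 (34.4% against 8.12%). The shares for TTCNNNGAA, the letters of a STAT site, were 6.25% and 7.18%, and those for TGANTCA, the letters of an AP-1 site, were 6.25% and 6.87%. All but TATAAA were searched on both strands. A match describes letters in the reference and not binding in these cells.

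Library totals ran from 13253575 to 18338667 counts, a 1.38-fold range, and a group was taken as at the floor where none of its libraries exceeded 3 counts. Pbrm1 itself had normalized counts of 1354, 1385 and 1677 in WT and 397, 459 and 451 in Pbrm1 cKO (log2 fold change -1.76, SE 0.13, adjusted p = 5.19e-40), which matched the labels. Stromal markers were abundant in every library. WT replicate 1 stood apart for this gene family: it was the lowest WT library for 31 of the 34 members with WT above the floor (91.2%), against 37.7% of 14061 genes with a mean of at least 10, and its level was 0.43 times the mean of the other WT libraries in the median member. The summed level of 8 pan-leukocyte markers moved with the groups and with that library. It was 1224 in WT replicate 1, 2577 to 2696 in the other WT libraries and 8085 to 8819 in Pbrm1 cKO, and its part in the differences below was not tested. In whole-culture RNA, a change in the number of cells of a type and a change in RNA per cell cannot be told apart.

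Of the 43 genes, 42 had at least 1 count and 39 entered the test. The DESeq2 Wald test found 15 higher and 5 lower in Pbrm1 cKO at an adjusted p under 0.05, where 15.9% of all 17474 genes tested were higher and 15.2% were lower. A further 19 did not pass, and Ccl17, Ccl19, Ccl28 and Cxcl15 had too few counts to be tested. The median log2 fold change was 0.66 over the 41 members above the floor in at least 1 group, also with Cxcl13 at its bound, and -0.0007 over all genes tested. Every Pbrm1 cKO library lay above every WT library for 20 members and below for 5, against 24% and 24.6% of all genes tested. Receptors for leukocyte migration were higher nearly throughout, at 6 of 7. The stromal ligands split, with 3 higher and 3 lower. Leaving out WT replicate 1 gave 14 members higher and 7 lower (17.7% and 16.5% of all genes tested), and leaving out Pbrm1 cKO replicate 2 gave 9 and 3 (12.5% and 11.7%). edgeR called 14 higher and 3 lower (20.8% and 20.6% of genes), limma voom 14 and 3 (21.7% and 20.4%), and the study's filter 14 and 5 (9.53% and 8.31%).

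**Figure D1:**
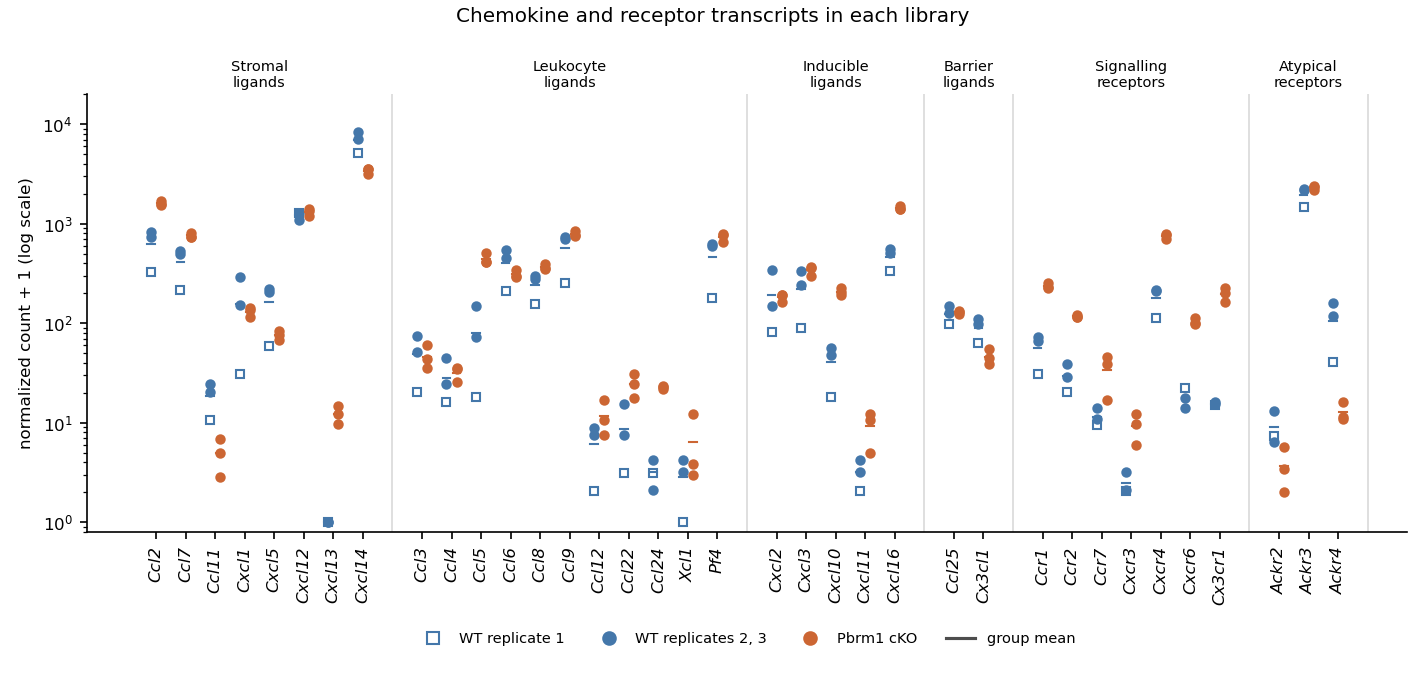
Normalized count plus 1 (log axis) of the 36 members that reached a normalized count of at least 10 in some library, by group of genes; points are libraries and short lines group means. WT replicate 1 (open squares) sits at or near the bottom of most WT columns, and the signalling receptors show Pbrm1 cKO above WT throughout.

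**Figure D2:**
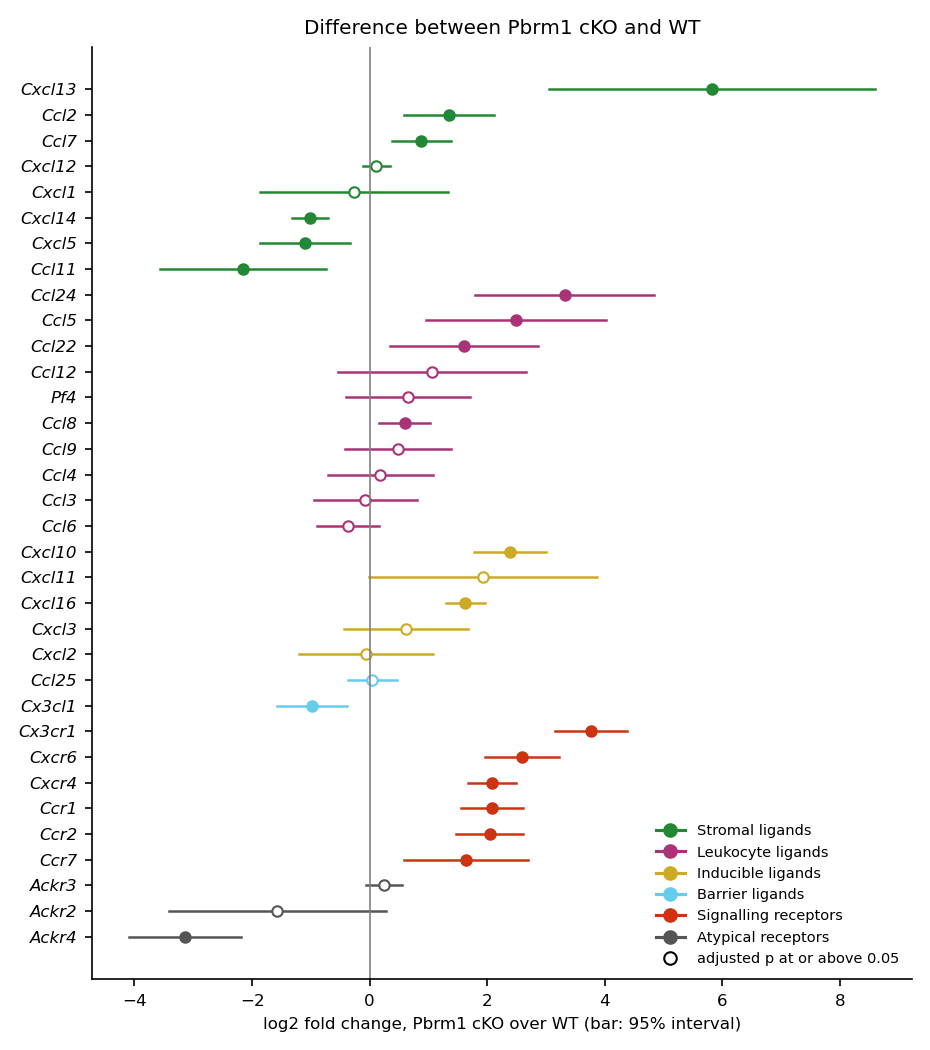
Log2 fold change of Pbrm1 cKO over WT (x axis) with its 95% interval for 34 members; filled points passed at an adjusted p under 0.05. Cx3cr1 and the other signalling receptors lie to the right of 0, while Ackr4, Ccl11, Cxcl5, Cxcl14 and Cx3cl1 lie to the left.

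Ligands known from stroma moved in both directions, and the most abundant of them fell. Cxcl14 (chr13:56288643-56296551), a ligand made by fibroblasts and epithelia whose receptor is not settled, had normalized counts of 5194, 8396 and 7147 in WT and 3537, 3524 and 3187 in Pbrm1 cKO. The groups did not overlap, and the level in Pbrm1 cKO was 2.02-fold lower (log2 fold change -1.02, SE 0.16, adjusted p = 2.3e-09). Per kilobase of exon, Cxcl14 was the most abundant member in both groups, at 3783 ± 883 normalized counts for WT against 1869.7 ± 108 for Pbrm1 cKO (SD, n = 3). The next in WT on this scale were Pf4 (648 ± 349.6), Ackr3 (587 ± 129) and Ccl2 (554 ± 234), whose SDs overlapped, and in Pbrm1 cKO they were Ccl2 (1407 ± 67.1), Pf4 (1020.3 ± 97.9) and Ccl7 (952 ± 54.9), of which Pf4 and Ccl7 overlapped within their SDs.

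Ccl2 (chr11:82035571-82037453), the main attractant of monocytes, rose from 327, 823 and 742 normalized counts in WT to 1598, 1527 and 1679.5 in Pbrm1 cKO. All Pbrm1 cKO libraries were above all WT libraries, and the change was 2.54-fold (log2 fold change 1.34, SE 0.39, adjusted p = 0.00314). Its neighbour Ccl7 (chr11:82045712-82047525), which attracts monocytes through the same receptor, rose from 217, 533 and 493 to 735, 739.9 and 813 (log2 fold change 0.88, SE 0.25, adjusted p = 0.00285). Both kept their direction in every alternative. Ccl7 did not pass without WT replicate 3 (adjusted p = 0.0693) or without Pbrm1 cKO replicate 2 (adjusted p = 0.186), nor where low genes were filtered before the fit (adjusted p = 0.0615).

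Cxcl13 (chr5:95956951-95961068), the B cell attractant of lymphoid stroma, had no count in any WT library and 14, 11 and 12 counts in Pbrm1 cKO (adjusted p = 0.00029). Set against the floor of 3 counts in each WT library, its level was at least 3.41-fold higher. Its receptor gene Cxcr5 had 1 count in each WT library and none in Pbrm1 cKO. Ccl19, a lymph node ligand of CCR7, was at 0 counts in all 6 libraries, and 52% of its 50-base stretches also occur in transcripts of near-identical copies, so its count is uncertain.

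Ccl11 (chr11:82057823-82062955), or eotaxin, attracts eosinophils and is induced by estrogen in the uterus. Its normalized counts were 9.62, 23.3 and 19.5 in WT and 5.92, 4.00 and 1.88 in Pbrm1 cKO, a fall of 2.16 on the log2 scale (SE 0.72, adjusted p = 0.0118) with no overlap. The counts were low in every library, and the call did not hold without WT replicate 2 (adjusted p = 0.11), WT replicate 3 (0.0635), Pbrm1 cKO replicate 2 (0.0592) or Pbrm1 cKO replicate 3 (0.0736). Cxcl5, a neutrophil attractant, had 57.7, 206 and 222 in WT and 67.1, 75.9 and 82.6 in Pbrm1 cKO (log2 fold change -1.11, SE 0.39, adjusted p = 0.0179). Here WT replicate 1 lay below all Pbrm1 cKO libraries while the other WT libraries lay above them. Leaving that library out gave a log2 fold change of -1.51 (adjusted p = 1.18e-10), and leaving out any other library gave adjusted p-values from 0.0526 to 0.157. It did not pass with edgeR (adjusted p = 0.0559) or limma voom (adjusted p = 0.0637).

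Cxcl12, the ligand that retains leukocytes and progenitor cells in tissue, was nearly level, with 1273, 1082 and 1296 in WT and 1417, 1354 and 1186 in Pbrm1 cKO. The groups overlapped, and the 95% interval of the log2 fold change was -0.12 to 0.35 (adjusted p = 0.526). It was also 1 of the 3 members for which WT replicate 1 was not the lowest WT library. Cxcl1 had 29.9, 151 and 288 in WT and 135, 113 and 139.8 in Pbrm1 cKO, so that the WT libraries spanned the whole Pbrm1 cKO range (log2 fold change -0.27, 95% interval -1.87 to 1.33, adjusted p = 0.855). Without WT replicate 3 its sign turned (0.52, adjusted p = 0.69), and without WT replicate 1 it was called lower (-0.76, adjusted p = 0.0136).

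Ligands of leukocytes had 4 members higher, none lower and 7 that did not pass of the 11 tested, with a median log2 fold change of 0.66. For the count of 0 lower, the edgeR quasi-likelihood test and limma voom also gave 0, and at an unadjusted p under 0.05 DESeq2 gave 0 as well. Leaving out WT replicate 1 gave 1 lower, Ccl6. Ccl5 (chr11:83525778-83530518), which T cells, natural killer cells and activated macrophages release to attract T cells and monocytes, rose from 17.1, 72.1 and 149 in WT to 416, 505 and 415 in Pbrm1 cKO. The change was 5.60-fold with no overlap (log2 fold change 2.49, SE 0.78, adjusted p = 0.00679), while the WT libraries differed widely among themselves. The adjusted p was 0.0531 without WT replicate 2 and 0.0616 without Pbrm1 cKO replicate 2. Without WT replicate 3, the highest WT library, the log2 fold change was 3.32 (adjusted p = 1.43e-05).

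Ccl24 (chr5:135569937-135573049), an eosinophil attractant of alternatively activated macrophages, had raw counts of 2, 1 and 3 in WT and 22, 28 and 22 in Pbrm1 cKO. The ratio of the summed counts, scaled by library size, was 9.95 (exact 95% interval 4.35 to 28.01), and the test gave an adjusted p of 0.000158. Its receptor gene Ccr3 had normalized counts of 0, 6.66 and 4.32 and 0.987, 3.20 and 1.88. Ccl8, which attracts monocytes and T cells, rose from 156, 299.7 and 275 to 348, 360.4 and 395 without overlap (log2 fold change 0.60, SE 0.22, adjusted p = 0.0242). This smaller change did not pass when Pbrm1 cKO replicate 1, 2 or 3 was left out (adjusted p = 0.074, 0.0945 and 0.131).

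Ccl22, a dendritic cell and macrophage ligand of CCR4, had normalized counts of 2.14, 14.4 and 6.49 in WT and 16.8, 29.6 and 23.5 in Pbrm1 cKO (log2 fold change 1.61, SE 0.64, adjusted p = 0.0409). It passed narrowly, and it did not pass when WT replicate 1 or 3 was left out (adjusted p = 0.139 and 0.124) or when Pbrm1 cKO replicate 1, 2 or 3 was left out (0.0785, 0.246 and 0.14). Nor did it pass the study's filter, which asks for p under 0.01, since its unadjusted DESeq2 p was 0.0123. Without WT replicate 2, the highest WT library, its log2 fold change was 2.44 (adjusted p = 0.00922). Ccl17, which shares the receptor CCR4, was at the floor in both groups, with raw counts of 2, 1 and 0 for WT and none for Pbrm1 cKO.

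Several abundant macrophage ligands did not pass the test. Ccl9 had 254, 705 and 744 in WT and 777, 752 and 844 in Pbrm1 cKO (log2 fold change 0.48, 95% interval -0.42 to 1.38), and Pf4, the platelet factor 4 that tissue macrophages also express, had 176, 625 and 599.9 and 765, 655 and 787 (log2 fold change 0.66, 95% interval -0.40 to 1.71). In both, Pbrm1 cKO lay above all WT libraries, but WT replicate 1 was far below the other WT libraries, and neither passed (adjusted p = 0.489 and 0.398). Pf4 passed with limma voom, which weights the groups by their spread (log2 fold change 0.86, adjusted p = 0.0376).

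Ccl6, a ligand of macrophages and other myeloid cells, had 209, 539 and 449.7 in WT and 343, 288 and 297 in Pbrm1 cKO. The other WT libraries were above Pbrm1 cKO and WT replicate 1 was below it (log2 fold change -0.37, adjusted p = 0.338), and without WT replicate 1 the value was -0.68 (adjusted p = 6.35e-05). Ccl3 and Ccl4, the macrophage inflammatory proteins that call in T cells and monocytes, overlapped between the groups: Ccl3 had 19.2, 49.9 and 73.5 and 59.2, 34.4 and 42.2, and Ccl4 had 14.96, 23.3 and 43.2 and 34.5, 33.6 and 24.4. Their log2 fold changes were -0.07 (95% interval -0.95 to 0.80) and 0.18 (95% interval -0.71 to 1.07). Ccl12, the mouse relative of Ccl2, had 1.07, 7.77 and 6.49 and 15.8, 9.59 and 6.57 (adjusted p = 0.363). Xcl1, a ligand of natural killer and T cells, reached 14 counts in Pbrm1 cKO replicate 2 and 0 to 3 in the other libraries, and the ratio of summed counts was 3.15 (exact 95% interval 1.14 to 10.8). It did not pass (adjusted p = 0.394). Its receptor gene Xcr1 had no count.

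Among ligands that many cell types make once induced, 2 of 6 were higher, and none was lower by DESeq2, edgeR or limma voom, or at an unadjusted p under 0.05. Cxcl10 (chr5:92346638-92348889), which attracts activated T cells and natural killer cells and follows interferon and NF-kB signals, rose from 17.1, 55.5 and 46.5 to 206, 223 and 191. The groups were far apart, at 5.22-fold (log2 fold change 2.38, SE 0.31, adjusted p = 5.78e-13), and the call held in all 12 alternatives. Its neighbours Cxcl9 and Cxcl11, which share the receptor CXCR3, were near the floor: Cxcl9 had raw counts of 0, 2 and 3 for WT and 8, 12 and 6 for Pbrm1 cKO, and Cxcl11 had 1, 2 and 3 and 4, 12 and 12. All Pbrm1 cKO libraries lay above WT for both, with count ratios of 4.31 (exact 95% interval 1.63 to 14.4) and 3.87 (exact 95% interval 1.57 to 11.4), but neither passed (adjusted p = 0.127 and 0.131). In Cxcl11, 40.4% of the 50-base stretches also occur in other transcripts, searched on both strands.

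Cxcl16 (chr11:70453983-70459984), a transmembrane ligand of macrophages and other cells that also binds oxidized lipoprotein, rose from 335, 556 and 509 to 1414, 1398 and 1509. This 3.09-fold change had a narrow error (log2 fold change 1.63, SE 0.17, adjusted p = 6.69e-20) and passed in all 12 alternatives. Of its 50-base stretches, 16.9% also occur in Zmynd15 transcripts, searched on both strands, while none of its exon bases overlaps another gene on the same strand. Cxcl2 and Cxcl3, the neutrophil attractants that share the promoter run printed above with Cxcl1, did not pass. Cxcl2 had 81.2, 149 and 340.5 and 164, 189 and 191 (log2 fold change -0.07, 95% interval -1.21 to 1.08), and Cxcl3 had 87.6, 239.7 and 336 and 363, 296 and 359 (log2 fold change 0.62, 95% interval -0.43 to 1.66). Cxcl1, Cxcl2 and Cxcl3 were each lowest in WT replicate 1 and highest in WT replicate 3 among WT. Without WT replicate 3, Cxcl2 had a log2 fold change of 0.66 (adjusted p = 0.0495).

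Ligands of epithelium and other barriers had 1 of 5 lower and none higher, and edgeR and limma voom gave the same counts. Only 3 were tested, and none was higher at an unadjusted p under 0.05. Cx3cl1 (chr8:94772009-94782427), or fractalkine, a membrane-bound adhesion ligand of endothelium, neurons and epithelia, had 61.99, 109.9 and 96.2 in WT and 54.3, 43.9 and 37.5 in Pbrm1 cKO. It fell by 0.98 on the log2 scale without overlap (SE 0.30, adjusted p = 0.00584). The adjusted p was 0.0811 without WT replicate 2 and 0.0576 without Pbrm1 cKO replicate 3. Ccl25, the thymic and intestinal ligand of CCR9, was level at 98.3, 125 and 148 and 133, 121 and 129 (log2 fold change 0.04, 95% interval -0.38 to 0.46). Cxcl17, a mucosal ligand, had raw counts of 1, 5 and 4 for WT and 3, 3 and 1 for Pbrm1 cKO (adjusted p = 0.693). Ccl28, a mucosal attractant of plasma cells, had 0, 1 and 1 and 1, 2 and 7 counts. Cxcl15, a lung ligand, had 5 counts in WT replicate 3, 1 in Pbrm1 cKO replicate 3 and 0 elsewhere.

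The signalling receptors were the most uniform group, with 6 of 7 higher, none lower and a median log2 fold change of 2.09; all 7 had every Pbrm1 cKO library above every WT library. No signalling receptor was lower by edgeR, by limma voom or at an unadjusted p under 0.05. Cx3cr1 (chr9:119901616-120069879), the fractalkine receptor of monocytes and tissue macrophages, showed the largest change among the members above the floor in both groups. It rose from 13.9, 14.4 and 15.1 in WT, where the libraries were nearly equal, to 162, 225 and 203 in Pbrm1 cKO. The change was 13.6-fold (log2 fold change 3.76, SE 0.31, adjusted p = 1.76e-31). Its coefficient of variation in WT was 4.29%, so WT replicate 1 did not stand apart here.

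Cxcr4 (chr1:128588199-128592293), the CXCL12 receptor carried by most leukocytes, rose from 112, 214 and 209 to 710.3, 791 and 768, a 4.25-fold change (log2 fold change 2.09, SE 0.21, adjusted p = 5.43e-22). Cxcr6, the CXCL16 receptor of T and natural killer cell subsets, rose from 21.4, 16.6 and 12.97 to 99.6, 96.7 and 112 (log2 fold change 2.59, SE 0.32, adjusted p = 3.8e-14). For Cxcr6, WT replicate 1 was the highest WT library, unlike the other signalling receptors called higher. Ccr1 and Ccr2, the receptors of monocytes for CCL3, CCL5, CCL6 and CCL9 and for CCL2, CCL7 and CCL12, rose by nearly the same amount. Ccr1 went from 29.9, 71.03 and 65.9 to 252, 225 and 229.9 (log2 fold change 2.08, SE 0.27, adjusted p = 2.11e-13), and Ccr2 from 19.2, 37.7 and 28.1 to 114, 113 and 121 (log2 fold change 2.04, SE 0.29, adjusted p = 5.54e-11). These 4 receptors and Cx3cr1 passed in all 12 alternatives.

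Ccr7, which guides dendritic and T cells to lymph nodes, was lower in abundance and more variable, at 8.55, 9.99 and 12.97 in WT and 37.5, 44.7 and 15.95 in Pbrm1 cKO. Pbrm1 cKO replicate 3 lay close to WT, though still above it (log2 fold change 1.64, SE 0.54, adjusted p = 0.00984). The call was lost without Pbrm1 cKO replicate 1 (adjusted p = 0.0837), without Pbrm1 cKO replicate 2 (adjusted p = 0.142) and with limma voom (adjusted p = 0.0872). Cxcr3, the receptor of activated T cells for CXCL9, CXCL10 and CXCL11, had raw counts of 1, 2 and 1 for WT and 5, 11 and 12 for Pbrm1 cKO. The count ratio was 5.80 (exact 95% interval 2.03 to 22.8), and it did not pass (adjusted p = 0.0582).

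Of the 4 atypical receptors, 1 was lower, none was higher and 3 did not pass. edgeR and limma voom gave the same counts, with 0 higher at an unadjusted p under 0.05. Ackr4 (chr9:104084157-104126933), a scavenger of CCL19, CCL21 and CCL25 on stromal and lymphatic cells, had 39.5, 158 and 117 in WT and 9.87, 15.2 and 10.3 in Pbrm1 cKO. It fell 8.81-fold without overlap (log2 fold change -3.14, SE 0.49, adjusted p = 2.38e-09) and passed in all 12 alternatives, with log2 fold changes from -3.52 to -2.72. Acad11 transcripts share 7.21% of its 50-base stretches on either strand, while none of its exon bases overlaps another gene on the same strand. Ackr3, a CXCL12 scavenger and the most abundant receptor of the set per kilobase, was within the spread at 1471, 2165 and 2262 in WT and 2399, 2362 and 2201 in Pbrm1 cKO (log2 fold change 0.24, 95% interval -0.06 to 0.54, adjusted p = 0.257). Ackr2, a scavenger of inflammatory CC ligands, had 6.41, 12.2 and 5.40 and 0.987, 2.40 and 4.69, with Pbrm1 cKO below WT (adjusted p = 0.213). Ackr1, the venular and erythroid chemokine carrier, had 4.28, 5.55 and 8.65 and 0.987, 4.79 and 5.63 with overlap (adjusted p = 0.654), and 25.7% of its exon bases overlap Cadm3 on the same strand.

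Ligands and receptors that act together can be read side by side. Cxcl16 and its receptor Cxcr6 were both higher, with log2 fold changes of 1.63 and 2.59. Ccl2, Ccl7 and their receptor Ccr2 were all higher, at 1.34, 0.88 and 2.04. In the fractalkine pair the ligand Cx3cl1 was lower (-0.98) and the receptor Cx3cr1 higher (3.76). For Cxcl12, the signalling receptor Cxcr4 was higher (2.09) while the ligand (0.12) and the scavenger Ackr3 (0.24) did not pass. Of the neutrophil-attracting ligands, Cxcl5 was lower and Cxcl1, Cxcl2 and Cxcl3 did not pass, and their receptor gene Cxcr2 had no count in any library, which allows up to 3 counts in each.

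Neighbours on a chromosome were read in order (gene positions on GRCm38 from the count table), and in 2 of 6 clusters some were called higher and others lower. Over all genes tested, 15.9% were called higher and 15.2% lower. Of the calls in these 2 clusters, only that of Ccl2 held in every alternative. Those of Ccl7, Ccl11, Ccl8, Ccl22 and Cx3cl1 were each lost in some of them. From Ccl2 to Ccl8 on chromosome 11 lay Ccl2, Ccl7, Ccl11, Ccl12 and Ccl8 in that order, of which 3 were higher and 1, Ccl11 in the middle, lower. A second group on chromosome 11 spanned 138.9 kb from Ccl5 through Ccl9, Ccl6 and Ccl3 to Ccl4, and only Ccl5 at its edge passed. On chromosome 5, Cxcl5, Pf4, Cxcl3, Cxcl15, Cxcl1 and Cxcl2 lay within 146.6 kb, with Cxcl5 lower and the others not called or not tested. Cxcl9, Cxcl10 and Cxcl11 lay within 44.1 kb, where Cxcl10 alone passed and all 3 had every Pbrm1 cKO library above WT. On chromosome 8, Ccl22 was higher and its neighbour Cx3cl1 lower. The receptor genes Cxcr6, Ccr1 and Ccr2 on chromosome 9 were the only cluster in which every member passed, and all 3 were higher.

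**Figure D3:**
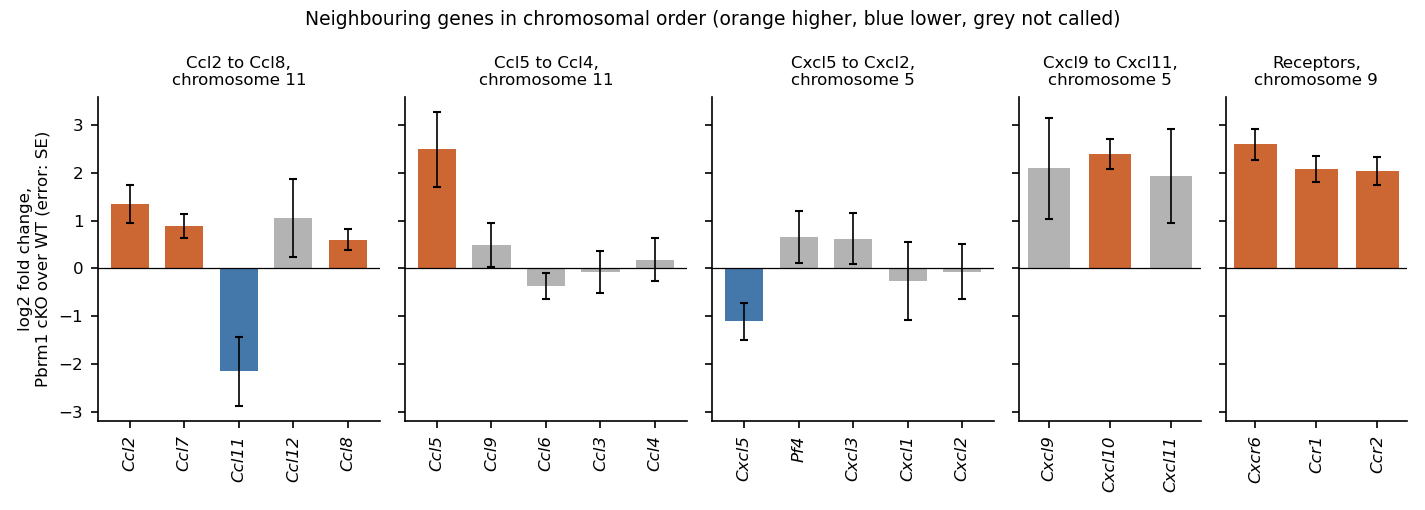
Log2 fold change of Pbrm1 cKO over WT with its SE (y axis) for neighbouring members in chromosomal order (x axis, order only), leaving out members with too few counts; orange bars are higher, blue lower and grey not called. Ccl11 points down between the higher Ccl7 and Ccl8, Ccl5 stands above the rest of its cluster, and the 3 receptors on chromosome 9 are of like height.

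Since all 8 pan-leukocyte markers were higher in Pbrm1 cKO, each member's level was also written per 1000 normalized counts of these markers, a measure chosen after the values were seen and given with no test. On this scale, 6 of the 9 leukocyte ligands with WT above the floor were lower in every Pbrm1 cKO library than in any WT library, and none was higher. The filter on WT left out the leukocyte ligand Ccl24, which was higher without overlap, at 1.75, 0.412 and 1.26 per 1000 in WT and 2.46, 2.69 and 2.55 in Pbrm1 cKO. It also left out the stromal ligand Cxcl13, which had no count in WT and was higher. Because the marker sum rose several-fold, 90.5% of 17010 genes tested with WT above the floor were also lower without overlap on this scale and 0.841% were higher, so a fall here is the usual outcome. Of the 34 members with WT above the floor, 23 were lower, among them all 7 stromal ligands and all 4 atypical receptors, 8 overlapped and 3 were higher. Ccl6 went from 171, 200.1 and 174 per 1000 in WT to 38.9, 34.7 and 36.8 in Pbrm1 cKO, and the WT libraries, WT replicate 1 included, were close together. Ccl8 went from 128, 111 and 107 to 39.5, 43.4 and 48.9, and Ccl3 from 15.7, 18.5 and 28.5 to 6.71, 4.14 and 5.22. Ccl4, Ccl9 and Pf4 were likewise lower without overlap. On the plain scale none of these 6 genes was called lower, and Ccl6 and Ccl3 had log2 fold changes below 0.

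Receptors stayed closer to the markers. Cxcr4 had 91.7, 79.5 and 80.96 per 1000 in WT and 80.5, 95.3 and 95.04 in Pbrm1 cKO, and Ccr2 had 15.7, 14.00 and 10.9 and 12.98, 13.7 and 14.97, with overlap in both. Ccr1 differed little, at 24.5, 26.3 and 25.6 and 28.5, 27.04 and 28.4, though without overlap. Cx3cr1 was higher relative to the markers, at 11.4, 5.35 and 5.87 in WT and 18.3, 27.1 and 25.1 in Pbrm1 cKO, and so was the ligand Cxcl10, at 13.97, 20.6 and 18.04 and 23.4, 26.8 and 23.7. Ccl5 overlapped, at 13.97, 26.8 and 57.9 and 47.2, 60.8 and 51.3. With 8 macrophage markers in place of the pan-leukocyte markers, the same 6 leukocyte ligands were lower, and Cx3cr1 was the only receptor of 6 that was higher, while Cxcl10 and Ccr1 overlapped (92.8% of all these genes were lower and 0.441% higher). Among stromal ligands the WT ratios of Ccl2 (267, 305 and 288), Ccl7 (177, 198 and 191) and Ccl11 (7.86, 8.65 and 7.55) were also close together, while those of the other 4, Cxcl1, Cxcl5, Cxcl12 and Cxcl14, lay further apart.

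**Figure D4:**
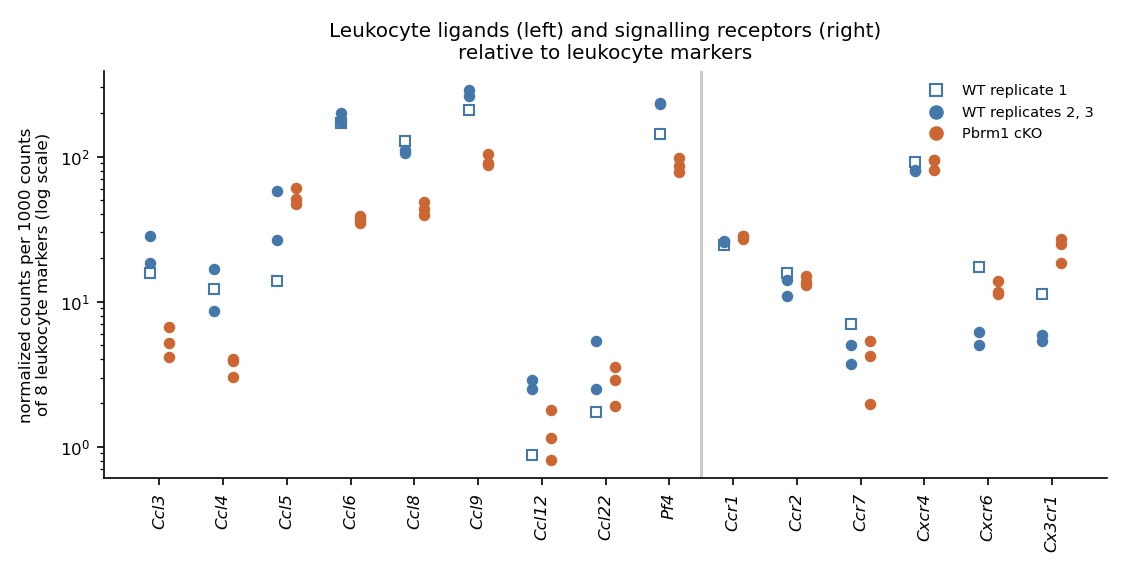
Normalized counts per 1000 counts of 8 pan-leukocyte markers (log axis) in each library, for the 9 leukocyte ligands (left) and 6 signalling receptors (right) with WT above the floor. Ccl3, Ccl4, Ccl6, Ccl8, Ccl9 and Pf4 lie lower in Pbrm1 cKO, Ccr2 and Cxcr4 overlap, Ccr1 lies slightly higher without overlap, and Cx3cr1 lies higher.

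Members varied more among WT than among Pbrm1 cKO libraries. Over the 27 members with a mean of at least 10 in both groups, the median coefficient of variation was 41.5% in WT and 8.49% in Pbrm1 cKO, against 12.6% and 6.37% over 13312 genes. The WT value was the larger for 25 of 27 members (92.6%) and for 75.7% of all genes. It was highest for Ccl5 at 83.5% and Cxcl1 at 82.5%, and in Pbrm1 cKO these were 11.6% and 10.9%. Cx3cr1 and Ccr7 were the exceptions, with the larger spread in Pbrm1 cKO. Among WT, 12 of the 27 members (44.4%) were lowest in replicate 1 and highest in replicate 3, against 18.9% of all genes, and Ccl3, Ccl4, Ccl5, Ccl9, Cxcl1, Cxcl2, Cxcl3 and Cxcl5 were among them.

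Other genes of the chemokine system were read from 4 further lists. Of 20 genes that carry the receptor signal, 16 were higher and 1 was lower. The largest changes were in Pik3r5, a regulatory subunit of the PI3-kinase that G proteins activate, with 25.7, 48.8 and 40.00 in WT and 288, 254 and 281 in Pbrm1 cKO (log2 fold change 2.85, SE 0.23, adjusted p = 1.06e-31), and in Vav1, a blood cell exchange factor for Rac, with 38.5, 86.6 and 55.1 and 443, 411 and 418 (log2 fold change 2.82, SE 0.23, adjusted p = 7.34e-32). Both are genes that leukocytes express. Of 18 genes of the cytokine, NF-kB and interferon pathways that act on chemokine genes, among them the NF-kB inhibitors Nfkbia and Tnfaip3, 10 were higher, none was lower by DESeq2, edgeR or limma voom or at an unadjusted p under 0.05, and 16 were tested. Tnfaip3, itself also a target of NF-kB, had 238, 265 and 291 and 590.0, 568 and 551 (log2 fold change 1.11, SE 0.13, adjusted p = 2.66e-15), and Tnf had 26.7, 71.03 and 85.4 and 141, 138 and 109.8 (log2 fold change 1.09, SE 0.35, adjusted p = 0.00752). Leaving out WT replicate 1 gave 1 gene of this list lower. Ifng and Il17a were at the floor in both groups.

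Of 10 genes that cut or present chemokines, 4 were higher and 2 lower. Mmp9, a gelatinase that trims several of them, had 27.8, 17.8 and 29.2 and 111, 82.3 and 91.01 (log2 fold change 1.93, SE 0.31, adjusted p = 1.52e-08). Sdc2, a heparan sulfate proteoglycan of the cell surface, had 1628, 2189.7 and 2661 and 929, 905 and 823, a fall of 1.29 on the log2 scale (SE 0.17, adjusted p = 2.71e-13). Among 17 further ligands and receptors, 13 were at the floor in both groups and 5 of these had no count at all. Only Ccrl2, a chemerin-binding relative of the chemokine receptors, passed, with 19.2, 25.5 and 43.2 and 70.05, 74.3 and 65.7 (log2 fold change 1.26, SE 0.34, adjusted p = 0.00156).

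Markers of the cells that carry or answer these genes moved as follows. All 8 pan-leukocyte markers were higher, with Ptprc at 172, 369.6 and 325 in WT and 1138, 1069.9 and 1105 in Pbrm1 cKO. The 8 macrophage markers were also all higher, and their summed level was 3316 to 7844 in WT and 28729 to 30596 in Pbrm1 cKO, with Adgre1 at 325, 578 and 422 and 1576, 1478 and 1387. Of 8 T and natural killer cell markers, 1 was higher, Cd3g, with raw counts of 3, 1 and 2 in WT and 25, 40 and 30 in Pbrm1 cKO. Their summed level was 7.48 to 16.6 in WT and 39.4 to 45.4 in Pbrm1 cKO, and 5 markers were at the floor in both groups. Neutrophil markers were higher for 2 of 7. These were Csf3r, with 17.1, 13.3 and 10.8 in WT and 113, 127 and 128 in Pbrm1 cKO, and S100a8, with 4.28, 15.5 and 18.4 and 37.5, 31.2 and 34.7. The neutrophil sums were 27.8 to 34.4 and 156 to 168, while the defining markers Elane and Ly6g were at 0 and at most 1 count. Dendritic markers were higher for 1 of 6, Itgax, with 6.41, 9.99 and 14.1 in WT and 152, 151 and 144 in Pbrm1 cKO. The dendritic sums were 182 to 229 and 347 to 384, with Xcr1 at 0. Few markers of B cells (1 of 5), eosinophils and mast cells (2 of 7) and platelets (2 of 5) had enough counts to be tested, and none of these passed in either direction with DESeq2, also at an unadjusted p under 0.05. Their summed levels in WT and Pbrm1 cKO were 8.55 to 14.4 and 9.87 to 18.8 for B cells, 6.41 to 73.2 and 81.6 to 102 for eosinophils and mast cells, and 53.4 to 109 and 55.9 to 102 for platelets, with Ms4a1, Epx, Gp1ba and Gp9 at 0. Kit made up most of the eosinophil and mast cell sum, at 5.34, 69.9 and 63.8 in WT and 86.8, 79.9 and 66.6 in Pbrm1 cKO. The largest part of the platelet sum was Ppbp, also among the further ligands above, at 37.4, 78.8 and 82.2 and 71.0, 29.6 and 37.5.

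Endothelial markers had 1 higher and 2 lower of 8, with summed levels of 1508 to 4174 in WT, lowest in WT replicate 1, and 1384 to 1533 in Pbrm1 cKO. Epithelial markers had 3 higher of 8, at 1633 to 2632 and 2772 to 2928. Stromal markers had 1 higher and 5 lower of 8, and their summed level was the highest of these lists, at 111205 to 133430 in WT and 83716 to 90031 in Pbrm1 cKO. Smooth muscle markers had 2 lower of 6, at 31823 to 36575 and 35819 to 38393.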

How the data were processed

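The authors deposited 1 table of raw counts per gene, made from trimmed reads (cutadapt) aligned with HISAT2 to GRCm38.p5 and counted with featureCounts 1.6.4 on GENCODE mouse release 18, with strand setting 2 per the file headers. The table also held gene length in bases. The labels describe random and poly(T) priming with transcript depletion, whereas the study's methods describe mRNA purification. Gene symbols came from reference tables for 99.7% of IDs. Counts were fitted as deposited by the Wald test of DESeq2 1.42.0 under R 4.3.3 (default filtering, Benjamini-Hochberg adjustment over all 17474 genes tested, threshold 0.05), and normalized counts are counts divided by its size factors. Every member was named. Of each pathway list, the 2 called genes with the largest change and a mean of at least 20 were named. The first gene was named for the pan-leukocyte and macrophage lists, and defining markers at the floor for some others. Cd3g, Csf3r, S100a8, Itgax, Kit and Ppbp were named after their values were seen. Receptor genes of members (Cxcr5, Ccr3, Xcr1 and Cxcr2) were named after their values were seen. Members, lists and their grouping were chosen with earlier results of these data known. Alternatives were edgeR 4.0.16, limma 3.58.1 voom with group weights, TMM size factors, a filter on low counts, the study's filter (1.5-fold, p under 0.01, adjusted p under 0.1), a replicate block and each library left out. Count ratios of genes with WT at the floor have exact 95% intervals, which cover counting error only. DESeq2, edgeR and limma voom were also run on simulated counts with the same spread in both groups. That run does not cover the unequal spread of these members, so it says nothing about their calls. Sequence overlap used 50-base stretches of GENCODE mouse release 21 transcripts, compared on both strands. Columns of authors' comparisons were not used. Figures were drawn with matplotlib 3.10.9.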

Additional observations from a re-analysis of the deposited data

How the results depend on the processing

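Of the 20 members that passed, 12 stayed past the threshold in every alternative that gave them a value, and none changed direction; 8 were lost in at least 1 of the 12 alternatives. The 12 were Ccl2, Ccl24, Cxcl10, Cxcl13, Cxcl14, Cxcl16, Ccr1, Ccr2, Cxcr4, Cxcr6, Cx3cr1 and Ackr4, with Cxcl13 tested in 5 alternatives only. Members called higher were 14 with edgeR and limma voom, 15 with TMM size factors, 13 with a filter on low counts, 14 with the study's filter and 9 to 14 with 1 library left out; members called lower were 3, 3, 5, 4, 5 and 2 to 7. Of all genes tested, 15.9% and 14.6% were higher and lower with TMM size factors, and 19.3% and 18.7% with the filter on low counts. Stromal ligands lower fell to 1 with edgeR and with limma voom, and stromal ligands higher to 1 with the filter on low counts, since Cxcl13 is dropped there and Ccl7 misses the threshold. With the study's filter, receptor signalling genes lower were 0, and presentation genes were 2 higher and 1 lower; presentation genes lower were also 1 with edgeR. Leaving out 1 library in turn gave 1 to 3 stromal ligands higher and 1 to 4 lower, 1 to 3 leukocyte ligands higher and 0 to 1 lower, 0 to 1 barrier ligands lower, 0 to 1 receptor signalling genes lower, 1 to 3 presentation genes lower and 0 to 1 genes of the inducing pathways lower.

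Uncalled members that changed sign had these log2 fold changes with limma voom: Cxcl1 0.23, Ccl3 0.0701 and Cxcl2 0.18. Across the libraries left out in turn, the value ran from -0.76 to 0.52 for Cxcl1, from -0.46 to 0.38 for Ccl3, from -0.43 to 0.66 for Cxcl2, from -0.11 to 0.69 for Ccl4 and from -0.10 to 0.19 for Ccl25. The cause was not tested.

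Same-numbered libraries did not deviate together (correlations 0.04, -0.04 and -0.00), so the replicate number was not taken as a pairing. With the replicate block, 12 members were higher and 4 lower (14.8% and 12.4% of all genes tested), Ccl11, Ccl22 and Ccr7 did not pass (adjusted p = 0.0709, 0.0671 and 0.0708), Cxcl1, Ccl3 and Cxcl2 had log2 fold changes of 0.17, 0.0372 and 0.16, receptor signalling genes lower were 0 and presentation genes lower were 1. Ccl17, Ccl28, Cxcl15 and Cxcl17 had at most 7 counts in any library, so that a fall or a small rise in them was not detectable at this depth.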
